A study of Mus musculus with 3 samples.

Results

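The adrenergic core transcription factors of neuroblastoma examined here were Phox2a, Isl1, Hand2, Hand1, Gata2, Gata3, Tfap2b and Insm1. They are a named list of 8 of the 31053 genes in the deposited count tables, taken by symbol and by no rule on measured values. The list was chosen with earlier results of these data known. Their RNA was followed by single-cell RNA sequencing in 3 tumors, each from a different TH-MYCN mouse, all carrying the transgene in the heterozygous state. The mice bearing tumor 1, tumor 2 and tumor 3 were 62, 79 and 63 days old, and no treatment or untreated tissue was part of the design. In this model the tyrosine hydroxylase promoter drives MYCN in cells of the sympathetic lineage, so every tumor shares the same driver and the 3 tumors form a single group. Whole tumors were dissociated, so that cancer cells, immune cells and stroma were read together.

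In the developing sympathetic nervous system, neural crest cells turn into noradrenergic neurons and chromaffin cells under a small set of transcription factors that bind their own and each other's enhancers. The same set is kept on in adrenergic neuroblastoma cells, where it is known as a core regulatory circuitry that maintains the enzymes and transporters of catecholamine production. Several of these factors also act elsewhere: Gata3 in T cells, Gata2 in blood progenitors and endothelium, Hand2 and Hand1 in the heart and in mesenchyme, and Isl1 and Insm1 in other neuroendocrine cells.

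The count tables held 3257, 4327 and 6038 barcodes for tumors 1, 2 and 3, of which 1914, 1221 and 2515 were kept by the authors. Kept cells had a median of 4282.5, 1594 and 1816 unique molecular identifiers (UMIs, counted transcripts) in the same order. Tumors 1 and 2 shared 3 kept barcodes, tumors 1 and 3 shared 0 and tumors 2 and 3 shared 1. Cells were clustered without the 8 genes, and clusters were named from marker genes. The tumor-like class took 7 clusters, each of which passed all 12 of its neuronal and chromaffin markers over the other cell types. It held 317 cells (16.6% of kept cells) in tumor 1, 864 (70.8%) in tumor 2 and 2040 (81.1%) in tumor 3, with a median of 991, 1533.5 and 1821 UMIs. Without integration the class held 51 cells (2.66%, median of 2544 UMIs), 935 (76.6%, 1548) and 2098 (83.4%, 1817). There 267 cells of tumor 1 lay in a cluster that was led by hemoglobin genes and passed 9 of the 12 tumor markers, and they were left unnamed, while 256 of them were tumor-like in the naming used here. In that naming 4 hemoglobin genes took 0.643% of the UMIs of tumor-like cells in tumor 1, 0.0142% in tumor 2 and 0.0430% in tumor 3. They took from 0.0379% to 0.61% in the other classes of tumor 1 with at least 10 cells, which leaves out its 5 erythroid-like cells. With clusters named by their fold over all other cells alone the tumor-like class held 105 cells (5.49%, median of 2273 UMIs), 239 (19.6%, 2168) and 355 (14.1%, 2035). The share of tumor-like cells was thus lowest in tumor 1 each time, while their depth was lowest there in the naming used here and highest there in both of these alternatives. A further 184 cells with markers of more than 1 type were left unnamed, and 1 macrophage-like cluster of 134 cells passed 8 of the 12 tumor markers.

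All 8 genes were detected in kept cells. Over the 3 tumors the kept cells held 830 UMIs of Phox2a, 2324 of Isl1, 2072 of Hand2, 984 of Gata2, 623 of Gata3, 2482 of Tfap2b and 988 of Insm1. Between 67.9% (Gata3) and 83.7% (Phox2a) of the UMIs of these 7 genes lay in tumor-like cells. Hand1 stood apart with 12 UMIs in 5650 cells, of which 11 came from tumor 2, 1 from tumor 3 and 0 from tumor 1.

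Levels are given as CPM, the UMIs of a gene over all UMIs of the summed cells of a tumor and class, where that total was multiplied by a TMM normalization factor. The factor differed among the 27 sums, from 0.448 to 1.69, and levels without it are also given in some comparisons below. CPM do not rank genes, since no length was taken into account. Phox2a, a paired-type homeodomain factor of autonomic neurons that activates the dopamine beta-hydroxylase gene, stood at 114, 97.5 and 149.8 CPM in the tumor-like cells of tumors 1, 2 and 3, a mean of 120.4 ± 26.7 (SD, n = 3 tumors). Isl1, a LIM-homeodomain factor needed for sympathetic neurons to mature, stood at 253, 332 and 401 CPM, a mean of 329 ± 74.1 (SD, n = 3). For Phox2a the tumor-like sum was the highest of all classes within every tumor, with and without the factors. For Isl1 it was so with them, while without them B cell-like cells of tumor 2 stood at 439 CPM on 11 UMIs (95% exact Poisson interval 219 to 786), against 308 in tumor-like cells.

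Hand2, a basic helix-loop-helix factor that turns on noradrenergic genes downstream of BMP signalling, stood at 349.8, 227 and 365 CPM in tumor-like cells, a mean of 314 ± 75.9 (SD, n = 3). Its close relative Hand1 stood at 0, 4.52 and 0.319 CPM, and the 0 of tumor 1 allowed up to 4.62 CPM at 3 UMIs. The Hand1 level in tumor-like cells of tumor 2 rested on 7 UMIs, and 1 UMI in 15 B cell-like cells of the same tumor already amounted to 23.6 CPM. No order of the classes could therefore be read for Hand1 at this depth.

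The zinc-finger factors Gata2 and Gata3 act after Phox2a and Hand2 in sympathetic precursors. Gata2 stood at 40.1, 104 and 186 CPM in tumor-like cells, the widest spread relative to its mean among the 7 well-detected genes, a mean of 109.9 ± 73.0 (SD, n = 3). Gata3 stood at 100.2, 85.9 and 71.7 CPM, a mean of 85.9 ± 14.2 (SD, n = 3). Gata2 was lowest in tumor 1 and highest in tumor 3, whereas Gata3 was highest in tumor 1.

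Tfap2b, an AP-2 family factor of the sympathoadrenal lineage, stood at 441, 367 and 388 CPM, a mean of 398 ± 38.1 (SD, n = 3). Insm1, a zinc-finger repressor that drives neuroendocrine differentiation, stood at 183, 103 and 174 CPM, a mean of 153 ± 43.7 (SD, n = 3).

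**Figure D1:**
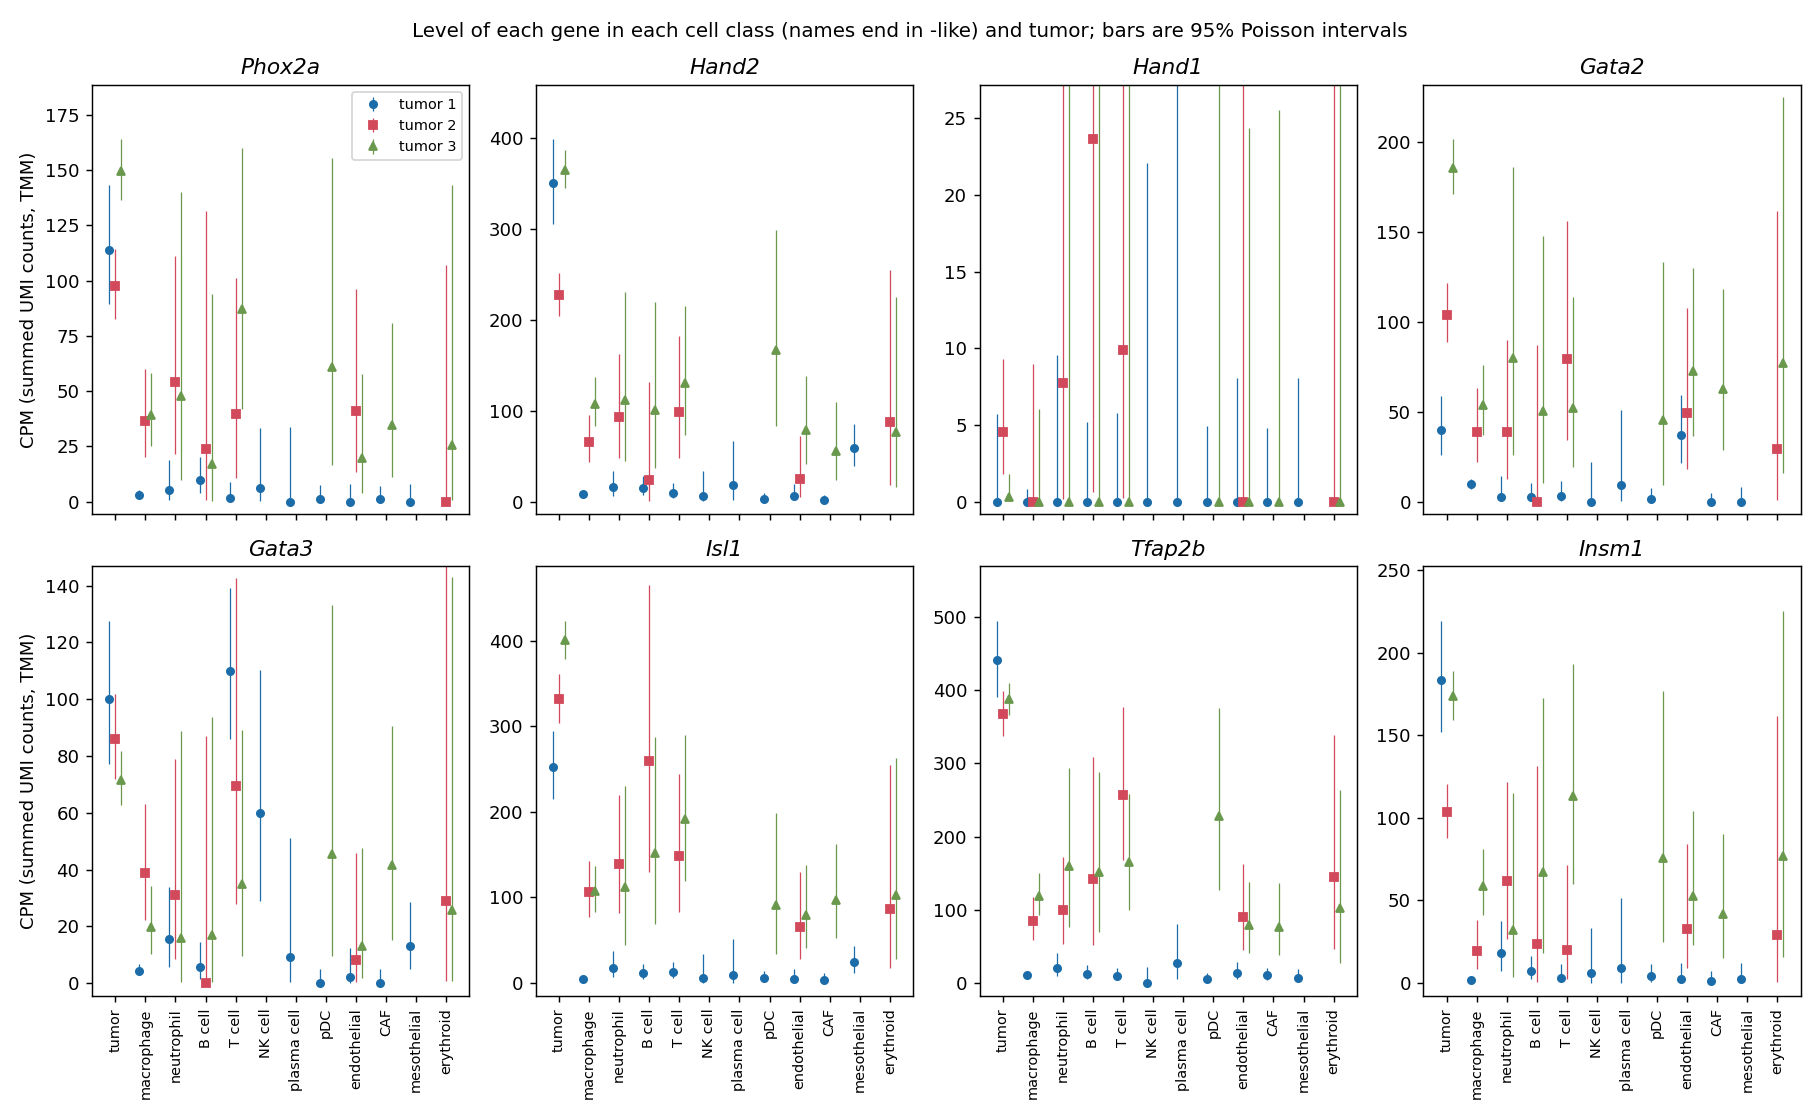
Level of each of the 8 genes in CPM (vertical axes, linear, 1 scale per gene) in each cell class (horizontal axis) and tumor (symbols), with exact 95% Poisson intervals that cover counting error only and are clipped at the top of some panels. Tumor-like sums lead for most genes, Gata3 of tumor 1 stands at 110.1 in T cell-like and 100.2 in tumor-like cells, an order that turns round without TMM factors (87.9 and 109.9), and sums of tumor 1 outside the tumor-like class lie near 0 for most genes.

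Outside the tumor-like class the tumors differed. In tumor 1, Tfap2b stood at 11.6 CPM on average over the other classes, against 441 in tumor-like cells, a ratio of 37.9. In tumors 2 and 3 the same gene stood at 137 and 135 CPM outside the tumor-like class, ratios of 2.68 and 2.87. The pattern held for the other genes: over the 7 genes without Hand1 the ratio of the tumor-like level to the mean of the other classes ran from 4.55 to 40.4 (median 25.3) in tumor 1, from 2.47 to 3.47 (median 2.92) in tumor 2 and from 2.68 to 3.61 (median 3.01) in tumor 3. Without TMM factors it ran from 6.16 to 60.5 (median 37.3), from 1.73 to 2.68 (median 2.33) and from 1.71 to 2.38 (median 1.89). On both scales each of the 7 genes was higher in tumor-like cells than in this mean in 3 of 3 tumors. Without the factors T cell-like cells of tumor 2 stood slightly above its tumor-like cells for Gata2 (97.5 against 96.6 CPM, on 8 UMIs) and Gata3 (85.3 against 79.8 CPM, on 7 UMIs).

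In 1 fit over 27 sums, tumor-like cells were compared with the 11 other classes, with no term for the tumor. The log level of tumor-like cells was set against the average of the log levels of the other classes, each class counting equally. Phox2a was higher by 3.88 on the log2 scale (SE 0.92, adjusted p = 0.00646), Tfap2b by 3.31 (SE 0.84, adjusted p = 0.00864) and Gata2 by 3.28 (SE 0.93, adjusted p = 0.0141) in edgeR's quasi-likelihood test with Benjamini-Hochberg adjustment. Insm1 (2.95), Hand2 (2.79), Isl1 (2.72) and Gata3 (2.24) were also called higher, with adjusted p-values up to 0.0188 in the same edgeR test. In all, 7 of the 7 genes tested passed, while 24% of the 10047 genes tested were called, 21.7% as higher and 2.3% as lower. Hand1 did not pass the filter on low counts, and the filter itself lets a gene through on the strength of the class where it is high, so that the count of 7 describes these genes without adding to the levels above. Phox2a, Tfap2b and Gata2 each had at least 1 class without UMIs, so that their fitted values depend on the prior count. With such classes set to 3 UMIs, and taken from class mean CPM instead of the fit, they were 2.68, 2.87 and 2.13. Genes with UMIs in every class kept their fitted values, so no order of the 7 was read from these values. The median over all genes tested was 0.43, and the fitted values of the 7 genes lay 1.80 to 3.44 above it. With the tumor as a block the 7 genes were higher by 2.10 (Gata3, SE 0.50) to 3.90 (Tfap2b, SE 0.48).

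The call depended on tumor 1, on the naming of the cells and on the weight of the classes. Without tumor 1 the 6 genes still tested were higher by 0.71 to 1.13, and 4 of them were called (Hand2, Isl1, Phox2a and Tfap2b), beside 5.23% of 4337 genes tested. Without tumor 2 the count was 5, beside 14% of 12140 genes, as Gata2 (adjusted p = 0.0505) and Gata3 (adjusted p = 0.0524) missed the threshold in edgeR's test with Benjamini-Hochberg adjustment, where adjusted p-values over all alternatives ran from 2.3e-10 to 0.225 for Gata2 and from 6.9e-07 to 0.106 for Gata3. With clusters named by their fold over all other cells alone, which left 2564 cells unnamed and 699 tumor-like, only Tfap2b (2.87) was called, beside 5.58% of 8148 genes. With all other classes summed per tumor only Gata3 (1.57) was called and the other 6 stood at 1.25 to 2.04, with a median of all genes of -0.01. Called in that fit were 33.9% of 10015 genes, of which 830 were higher and 2563 lower, against 2177 and 231 with each class counting equally. Each gene tested in these settings was higher there, Gata3 not being tested without tumor 1.

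The 7 genes also carried UMIs in cells not known to transcribe them. To compare cells at 1 depth, each cell was thinned at random to 1000 UMIs, which left out 161 of the 317 tumor-like cells of tumor 1 and 0 of those of tumors 2 and 3. Of the other classes named below it left out 4 B cell-like, 14 neutrophil-like and 22 T cell-like cells, all of tumor 1. In B cell-like cells of tumor 1 (200 cells, median of 4391.5 UMIs before thinning) Tfap2b was found in 1.5%, against 39.1% of the 156 tumor-like cells (median of 1801 UMIs). In tumor 2 the B cell-like share was 20.0% of 15 cells (95% exact binomial interval 4.33% to 48.1%), against 27.5% of 864 tumor-like cells. In tumor 3 it was 26.9% of 26 cells (95% exact binomial interval 11.6% to 47.8%, median of 1493.5 UMIs), against 25.6% of 2040 tumor-like cells (median of 1821 UMIs). With so few B cell-like cells no order of the shares could be read in tumors 2 and 3. The level of Tfap2b in tumor 3 was 388 CPM in tumor-like and 151.6 CPM in B cell-like cells, or 315 and 223 CPM without TMM factors.

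In neutrophil-like cells Hand2 was read in the same way. It was found in 1.80% of 222 neutrophil-like cells of tumor 1 (95% exact binomial interval 0.493% to 4.55%, median of 2672.5 UMIs) and in 30.8% of its tumor-like cells. In tumor 2 the shares were 11.1% of 54 neutrophil-like cells (4.19% to 22.6%, median of 2231.5 UMIs) and 17.6% of 864 tumor-like cells (median of 1533.5 UMIs), and in tumor 3 they were 18.2% of 22 (5.19% to 40.3%, median of 2072 UMIs) and 25.2% of 2040. The interval of tumor 3 lay above that of tumor 1, and that of tumor 2 overlapped it. For Gata3 the neutrophil-like shares were 0.901%, 3.70% and 0 of 22 cells. The source of these UMIs was not tested.

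Within a tumor, the proportions among the 8 genes outside the tumor-like class could be set beside those inside it. In tumor 3, Tfap2b made up 22.4% of the 5445 UMIs of the 8 genes in tumor-like cells and 24.3% of 503 UMIs in the other classes, leaving aside T cell-like, NK cell-like, endothelial-like and mesothelial-like cells. Isl1 made up 23.1% and 21.1%, Hand2 21.05% and 20.1%, and Gata3 4.13% and 4.77%. In tumor 2 the shares of Phox2a were 7.38% of 2045 UMIs and 8.71% of 264, and those of Gata2 were 7.87% and 8.33%. Also in tumor 2, Tfap2b made up 27.8% and 22.3% and Isl1 25.1% and 28.8%, so that Tfap2b led in tumor-like cells and Isl1 in the other classes. Tumor 1 differed for Gata2, which made up 2.71% of 961 UMIs in tumor-like cells and 15.3% of 320 UMIs in the other classes, 44 of its 49 UMIs there being in macrophage-like cells.

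**Figure D2:**
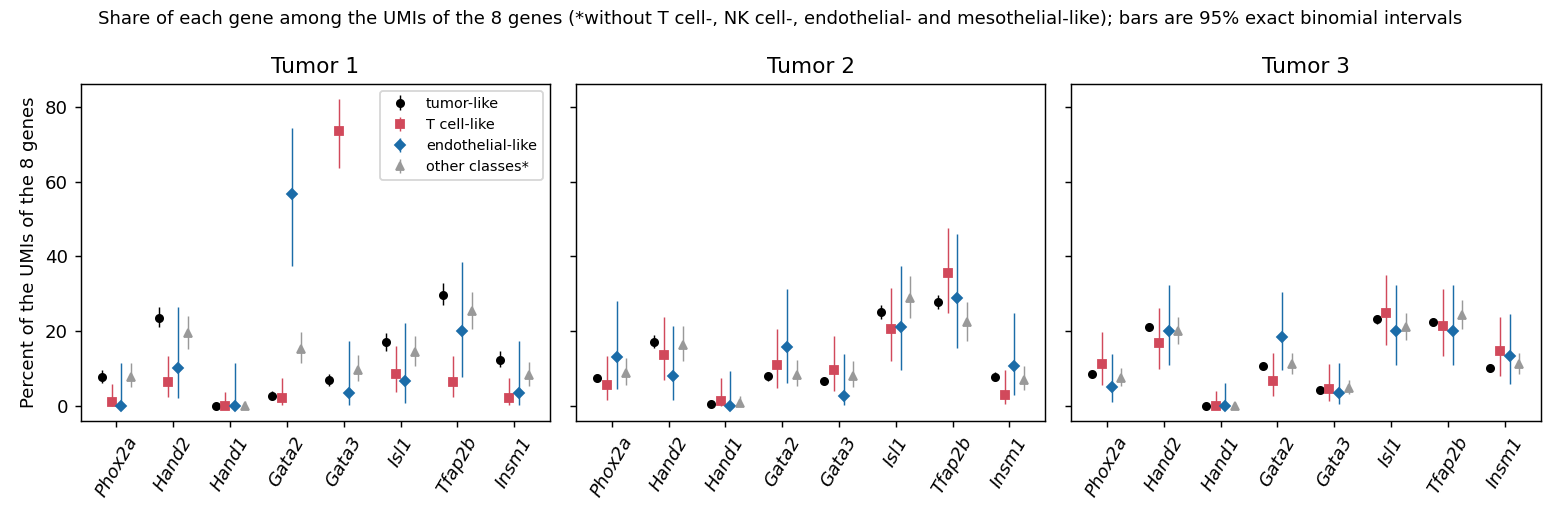
Percent of the UMIs of the 8 genes taken by each gene (horizontal axis) in tumor-like cells, T cell-like cells, endothelial-like cells and the other classes of each tumor, with exact 95% binomial intervals. In tumor 1 Gata3 takes 73.7% in T cell-like and Gata2 56.7% in endothelial-like cells, while in tumors 2 and 3 the classes lie closer together.

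T cell-like cells of tumor 1 held 70 UMIs of Gata3, the T lineage factor, in 37 of 146 cells (25.3%, 95% exact binomial interval 18.5% to 33.2%, median of 4975.5 UMIs). That amounted to 110.1 CPM, against 5.62 CPM in B cell-like cells of the same tumor. Gata3 made up 73.7% of the 95 UMIs of the 8 genes in these cells, against 6.76% in tumor-like cells. NK cell-like cells of tumor 1 stood at 59.9 CPM of Gata3 on 10 UMIs. At 1000 UMIs the Gata3 share of T cell-like cells in tumor 1 fell to 7.26% of 124 cells, above the 0.5% of 200 B cell-like cells. In tumors 2 and 3 the T cell-like level was 69.3 CPM on 7 UMIs and 34.8 CPM on 4 UMIs, with 95% Poisson intervals (27.9 to 143 and 9.47 to 89.0 CPM) that overlapped those of macrophage-like cells (22.2 to 63.0 and 10.1 to 34.2 CPM).

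Endothelial-like cells held Gata2 at 37.2, 49.5 and 72.6 CPM in tumors 1, 2 and 3, a mean of 53.1 ± 18.0 (SD, n = 3). In tumor 1 this rested on 17 UMIs and came close to the 40.1 CPM of its tumor-like cells, while B cell-like cells stood at 2.81 CPM. Gata2 made up 56.7% of the 30 UMIs of the 8 genes in these endothelial-like cells, with a 95% exact binomial interval from 37.4% to 74.5%. Of the other non-tumor classes, those above the endothelial-like level of the same tumor were T cell-like cells of tumor 2 (79.2 CPM on 8 UMIs) and neutrophil-like and erythroid-like cells of tumor 3 (79.8 and 77.1 CPM on 5 and 3 UMIs).

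Hand2 in stroma was seen in mesothelial-like cells of tumor 1, where 16 cells held 27 UMIs (59.0 CPM, 95% exact Poisson interval 38.9 to 85.8). CAF-like cells, the fibroblasts and perivascular cells of the tumor, held 1 UMI of Hand2 in 48 cells of tumor 1 (1.30 CPM) and 8 UMIs in 30 cells of tumor 3 (55.4 CPM). The mesothelial-like class reached 10 cells in tumor 1 alone, so it has no replicate and was not tested by itself.

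T cell-like, endothelial-like and CAF-like cells were each tested against the other non-tumor classes. Without a tumor term, 0 of 7 genes tested were called by edgeR's quasi-likelihood test in any of the 3 contrasts, while 1.72%, 11.4% and 12.7% of 7566 genes were called in T cell-like, endothelial-like and CAF-like cells. At an unadjusted p under 0.05, 1 gene passed in T cell-like, 1 in endothelial-like and 0 in CAF-like cells. Of all 7566 genes, 739, 1338 and 1423 passed that cut in the same order. DESeq2 called 0 in each, beside 0.819%, 7.48% and 5.95% of all genes. Its split of calls differed from that of edgeR, with 55 higher and 7 lower against 130 and 0 in T cell-like cells, and 494 and 72 against 850 and 16 in endothelial-like cells.

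With the tumor as a block, Gata3 was higher in T cell-like cells by 2.54 (adjusted p = 0.00358) and Gata2 in endothelial-like cells by 2.38 (adjusted p = 0.0129), in edgeR's quasi-likelihood test with Benjamini-Hochberg adjustment. In the same edgeR fit Hand2 was lower in CAF-like cells by -1.77 on the log2 scale (adjusted p = 0.0369). With the block, 4.61%, 15.6% and 17.4% of 7566 genes were called in T cell-like, endothelial-like and CAF-like cells. Over all alternatives the adjusted p-value ran from 0.00127 to 0.488 for Gata3 in T cell-like, from 0.00302 to 0.835 for Gata2 in endothelial-like and from 0.0369 to 1 for Hand2 in CAF-like cells, in edgeR or DESeq2 with Benjamini-Hochberg adjustment. Without tumor 3 the calls of Gata3 and Gata2 were also made with no block.

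In single tumor-like cells at 1000 UMIs, the most widely found genes were Tfap2b in 39.1%, 27.5% and 25.6%, Isl1 in 23.1%, 24.3% and 26.4%, and Hand2 in 30.8%, 17.6% and 25.2% of cells of tumors 1, 2 and 3. Phox2a was found in 15.4%, 7.75% and 11.5% and Insm1 in 16.7%, 9.61% and 13.8% of cells. Before thinning the shares of Tfap2b were 36.9%, 43.5% and 42.1%, and those of Isl1 27.4%, 39.5% and 42.3%. The share of Tfap2b was highest in tumor 1 at equal depth and lowest there before thinning. The shares before thinning cover all tumor-like cells, while those at 1000 UMIs leave out 161 of the 317 of tumor 1. In that tumor they thus rest on different cells.

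The GATA factors went in opposite directions among the tumors. Gata2 was found in 3.21% of 156 cells of tumor 1 (95% exact binomial interval 1.05% to 7.32%), 9.95% of 864 of tumor 2 (8.04% to 12.1%) and 12.7% of 2040 of tumor 3 (11.3% to 14.2%). Gata3 was found in 12.8% (8.01% to 19.1%), 6.94% (5.34% to 8.85%) and 5.54% (4.59% to 6.62%). Hand1 was found in 0 cells of tumor 1, which allows a share of up to 1.92%, in 4 cells of tumor 2 (0.463%) and in 0 of tumor 3, which allows up to 0.147%. These limits concern cells with a UMI of Hand1 at this depth and set no limit on cells that express it. Before thinning, 1 tumor-like cell of tumor 3 held a Hand1 UMI. With 1 tumor per mouse and no groups, no difference between tumors was tested.

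A tumor-like cell at this depth carried 1.41, 1.04 and 1.21 of the 8 genes on average in tumors 1, 2 and 3, and the median was 1 gene in each. None of the 8 was found in 19.2%, 32.6% and 25.6% of cells, where the product of the single shares gives 19.3%, 31.4% and 25.7%. At least 3 genes were found in 12.8%, 7.18% and 9.95% of cells, with 14.1%, 6.69% and 9.93% from the product. At least 5 were found in 1, 3 and 8 cells, or 0.641%, 0.347% and 0.392%, with 0.302%, 0.0803% and 0.172% from the product. Exactly 4 were found in 1.28%, 1.85% and 1.62% of cells, with 2.45%, 0.877% and 1.54% from the product. Cells with none or at least 3 genes were thus close to the product in number, and cells with at least 5 lay above it in 3 of 3 tumors, on few cells. A cell with no UMI of these genes at this depth is not shown to lack them.

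**Figure D3:**
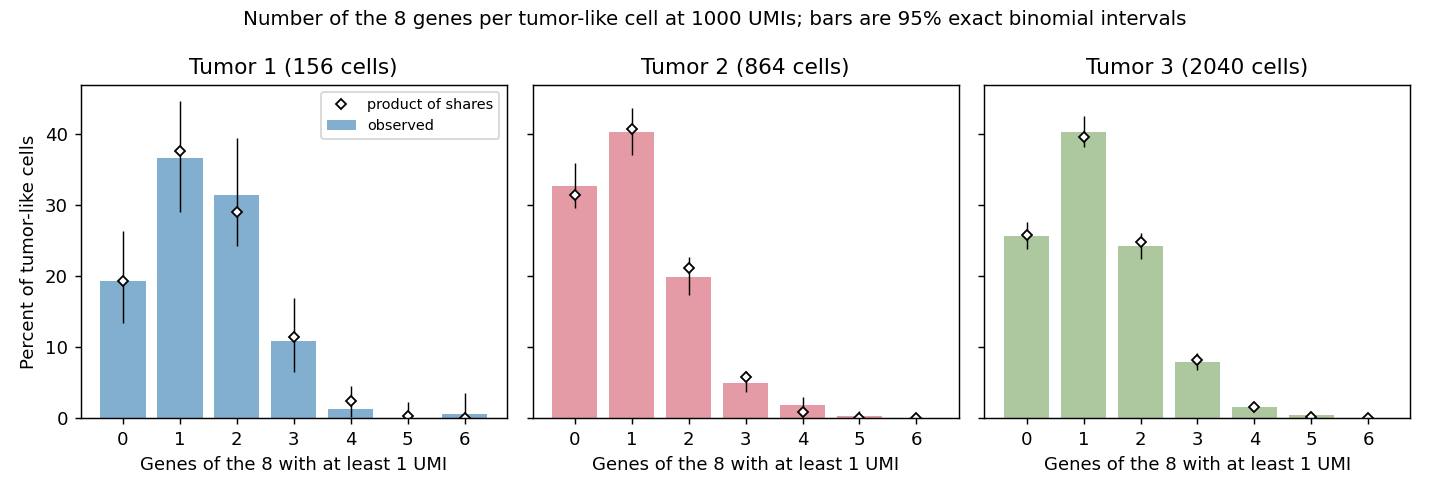
Percent of tumor-like cells (vertical axis) with a given number of the 8 genes (horizontal axis) after thinning to 1000 UMIs, 1 panel per tumor, with bars for the observed share, exact 95% binomial intervals and diamonds for the product of the single shares. Bars and diamonds lie close together for up to 3 genes, and cells without any of the 8 genes make up 19.2%, 32.6% and 25.6%.

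Co-detection of pairs was read as the number of cells with both genes over the number that the product of their shares gives, over the 21 pairs without Hand1. The median of this ratio was 0.984 in tumor 1, 1.12 in tumor 2 and 1.01 in tumor 3, and 10, 17 and 12 of 21 pairs lay above 1. In tumor 1 single pairs ran from 0 to 2.40, on as few as 0.641 cells given by the product. In tumor 3, where that number was at least 13.02, they ran from 0.863 to 1.16. The wide spread of tumor 1 thus went with few cells.

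Above 1 in 3 of 3 tumors were 4 pairs: Gata2 with Gata3, Hand2 with Tfap2b, Isl1 with Tfap2b and Gata3 with Isl1. The shares of pairs above 1 in the single tumors multiply to 4.63 of 21 pairs above 1 in all 3, and the shares below 1 to 0.898 pairs. Gata2 and Gata3 shared 1, 11 and 16 cells, against 0.641, 5.97 and 14.3 from the product, and had a mean ratio of 1.51 ± 0.37 (SD, n = 3), which was 0.704 at 500 UMIs. Isl1 and Tfap2b shared 17, 60 and 150 cells, against 14.1, 57.8 and 138, a mean ratio of 1.11 ± 0.088 (SD, n = 3), which was 0.985 at 500 UMIs, where the median ratio of all pairs was 0.945. Phox2a and Gata3 was the only pair below 1 in 3 of 3 tumors, with a mean ratio of 0.728 ± 0.356 (SD, n = 3). These ratios describe cells of 3 libraries and were not tested.

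**Figure D4:**
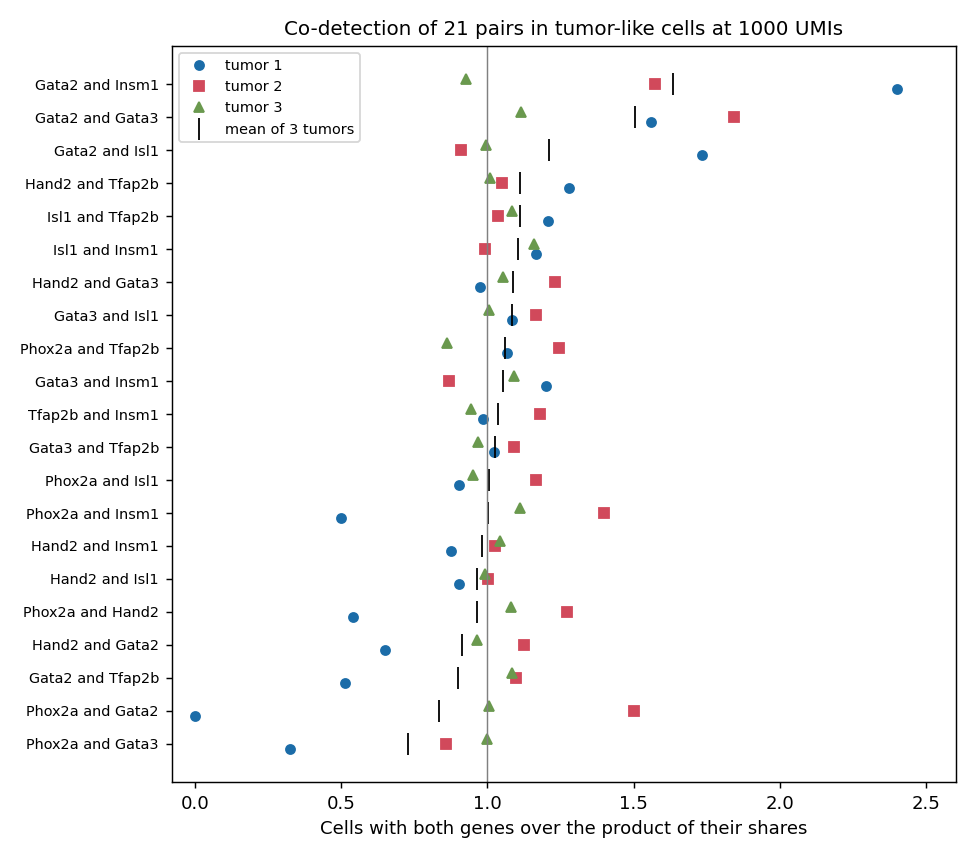
Ratio of cells with both genes to the product of their shares (horizontal axis, linear) for 21 pairs (vertical axis) in tumor-like cells thinned to 1000 UMIs, with a symbol per tumor and a tick for the mean of the 3. All 21 pairs of tumor 3 lie between 0.863 and 1.16, and the points of tumor 1 spread from 0 to 2.40.

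Levels were also read in the single tumor-like clusters, with TMM factors of their own. In tumor 3, with 7 clusters, the highest over the lowest cluster level ran from 1.19 for Isl1 (335 to 399.6 CPM) to 2.06 for Hand2 (179 to 368 CPM), with a median of 1.56 over the 7 genes. In tumor 2, with 6 clusters, the median was 1.68, and Isl1 ran from 222 CPM in cluster 7 (95% exact Poisson interval 162 to 297) to 374 CPM in cluster 3 (304 to 454). In tumor 1, with 5 clusters of 26 to 146 cells, the median was 2.98, and Phox2a ran from 33.2 CPM in cluster 4 to 171 CPM in cluster 1. Each of the 7 genes was found in every cluster that was summed. Not summed were cluster 19 in tumor 1 (3 cells) and tumor 2 (1 cell). Cluster 7 in tumor 1 was not summed either, since its 42 cells there were left unnamed.

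Tumor-like cells with at least 3 UMIs of 18 G2 and mitosis genes at 1000 UMIs (87, 596 and 1401 cells) were set against cells with none (25, 32 and 52 cells). Levels are given here without TMM factors, which ran from 0.808 to 1.29 over all genes and from 0.971 to 1.02 over the genes of the fit below. Tfap2b stood at 598, 292 and 291 CPM in the cycling state of tumors 1, 2 and 3 and at 520, 250 and 327 CPM in the other. Hand2 stood at 345, 210 and 283 CPM against 440, 188 and 365 CPM, and Isl1 at 230, 315 and 320 CPM against 360, 188 and 385 CPM. Both were thus lower in the cycling state in tumors 1 and 3, while with the factors over all genes both were higher in the mean over tumors (310 against 294 CPM and 331 against 280 CPM). With these factors Hand2 was still lower in tumors 1 (326 against 341 CPM) and 3 (351 against 374 CPM). Isl1 was then lower in tumor 1 alone (217 against 279 CPM). Insm1 was higher in the cycling state in 3 of 3 tumors, at 253, 102 and 158 CPM against 160, 31.2 and 135 CPM, where the lower sums held 4, 1 and 7 UMIs. So was Phox2a, at 207, 70.5 and 124.9 CPM against 120, 62.5 and 115 CPM, where they held 3, 2 and 6 UMIs. On either scale this held for these 2 genes. With the factors over all genes Tfap2b stood at 564, 352 and 360 CPM in the cycling state and at 404, 223 and 335 CPM in the other. On that scale Tfap2b was thus higher in the cycling state in 3 of 3 tumors, and without the factors in tumors 1 and 2. Tfap2b was found in 37.9%, 25.8% and 24.9% of cells in the cycling state and in 40.0%, 21.9% and 28.8% of cells in the other, so that its order differed between the tumors.

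Of the 8 genes 4 passed the filter, and 0 of these 4 were called by edgeR's quasi-likelihood test, with log2 differences of 0.48 (SE 0.59) for Insm1, 0.05 (SE 0.42) for Tfap2b, -0.11 (SE 0.31) for Isl1 and -0.31 (SE 0.36) for Hand2. At an unadjusted p under 0.05 the count was also 0, beside 23 of all 1127 genes, and DESeq2 called 0. Of all 1127 genes tested 0.799% were called, 9 in number, all of them genes of the list that defined the states. The state without mitosis genes held at most 52 cells in a tumor.

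Other genes of the same circuitry were read in the contrast of tumor-like cells with the other classes. As above, the filter lets a gene through on the strength of the class where it is high. Counts of calls in this list and those that follow therefore describe the genes without adding to their levels. Of 16 further transcription factors of adrenergic cells, 13 were tested and 8 were called higher, beside 21.7% of all genes tested, with a median of 2.72 against 0.43. Meis2 (3.51), a TALE homeodomain factor, St18 (3.49), a zinc-finger factor of neural cells, Dach1 (3.45), a partner of Eya proteins, and Zfp536 (3.23), a zinc-finger repressor, had the largest fitted values. All 4 had a class with no UMI, so that these values depend on the prior count. With such classes set to 3 UMIs, and taken from mean CPM, they were 2.05, 2.49, 2.12 and 2.41. Sox11 (2.72) had no such class and kept its fitted value, so no order against it was read. The list median, which joins both kinds of value, was 2.01. With the other classes summed, 2 of 12 tested were higher and 1 was lower. That fit called 830 of all 10015 genes higher and 2563 lower.

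Of 14 dimer partners and cofactors, all tested, 5 were called higher, beside 21.7% of all genes. Their median was 0.89, or 0.34 with classes without UMIs set to 3. The second median joins values taken from mean CPM with the fitted values of genes that had UMIs in every class. With the other classes summed, 2 were higher and 1 was lower. That fit called 830 of all 10015 genes higher and 2563 lower. Among the 5 genes called with each class counting equally were the LIM-only proteins Lmo3 (3.74) and Lmo1 (2.87), which bridge GATA and helix-loop-helix factors. Their binding partner Ldb1 (1.37) and Hdac2 (1.80), a deacetylase of the complexes that Insm1 recruits, were also among the 5. The E proteins Tcf3 (0.48), Tcf4 (1.22) and Tcf12 (-0.02), which pair with Hand2, were not called. Of the Id proteins, which keep E proteins from DNA, 0 of 3 tested were called, with 0 at an unadjusted p under 0.05 and 0 by DESeq2. Of all 10047 genes 3512 passed that unadjusted cut in edgeR's fit. With the other classes summed, 3 of 3 Id genes were called lower, with a median of -2.48. In that fit 2563 of all 10015 genes were called lower.

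Noradrenergic effectors, the genes through which the circuitry is known to act, were called higher in 7 of 7 tested, beside 21.7% of all genes, with a median of 3.90. The list holds 11 genes, of which 4 did not pass the filter. That filter lets a gene through on the strength of the class where it is high, so the 7 calls only describe these genes. With the other classes summed 2 of 7 were called higher. That fit called 830 of all 10015 genes higher and 2563 lower. The 7 effectors included Maoa (4.35), which degrades catecholamines, Th (4.20) and Dbh (4.17), enzymes of their synthesis, and Slc18a2 (3.90), which loads them into vesicles. Th stood at 46.2, 130 and 122 CPM in tumor-like cells of tumors 1, 2 and 3. Dbh stood at 4.62, 28.4 and 19.1 CPM on 3, 44 and 60 UMIs, and it is absent from the authors' normalized table of tumor 1. DESeq2 called 5 of these 7, and in 6 of them at least 1 class held no UMI, so that the fitted values depend on the prior count. With such classes set to 3 UMIs the median was 2.02, and that of the 7 core genes 2.72. Both medians join values taken from mean CPM with the fitted values of genes that had UMIs in every class.

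Mesenchymal-type transcription factors, which mark the alternative state of neuroblastoma cells and the stroma, were called in 0 of 11 tested by edgeR, with 0 at an unadjusted p under 0.05 and a median of -1.36, or -3.38 with classes without UMIs set to 3 where the tumor-like class held any. Of all 10047 genes 3512 passed the unadjusted cut in edgeR's fit. DESeq2 called 5 of the 11 lower. In the fit with all other classes summed per tumor 5 of 5 tested were called lower, with a median of -4.44. That fit called 2563 of all 10015 genes lower. The median of -3.38 was taken from mean CPM instead of the edgeR fit, except for Meox2, which kept its fitted value. Each of the 11 had a class with no UMI. Over all genes, 0 of 6155 with such a class were called lower, against 231 of 3892 without one. DESeq2 called 2133 genes higher and 1370 lower, against 2177 and 231 for edgeR, and its median was 0.17, a shift of -0.26.

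Across the 27 sums, which share 3 libraries and hold from 23655 to 6237741 UMIs, the 21 pairs of the 7 genes had Pearson correlations of log2(CPM + 1) from 0.395 (Gata3 with Tfap2b) to 0.907 (Isl1 with Tfap2b), with a median of 0.737. Outside the lists, among 10942 genes, the patterns most like the 8 were those of Igfbpl1 (0.898) and Tub (0.894) for Phox2a, Bex2 (0.954) and Mycn (0.95) for Isl1, and Mycn (0.909) and Eef1a2 (0.889) for Hand2. For Gata2 they were Prima1 (0.871) and Rundc3a (0.829), for Tfap2b Cenpv (0.943) and Gm1673 (0.927), and for Insm1 Cidea (0.935) and Peg10 (0.928). Gata3 was most like Hist1h1a (0.751) and Cdc45 (0.746), genes of S phase, at lower correlations than the other 6 genes. For Hand1, Eif2s3y (0.788) and Acta1 (0.676) came first, on 12 UMIs in all. Mycn here is the mouse gene symbol, to which reads of the human transgene can also have been counted.

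In GRCm38, the genes lie on 7 chromosomes: Tfap2b at chr1:19208914-19238576, Gata3 at chr2:9857078-9890034, Insm1 at chr2:146221921-146225020, Gata2 at chr6:88193891-88207032, Phox2a at chr7:101818313-101822726, Hand2 at chr8:57320983-57324633, Hand1 at chr11:57828705-57832818 and Isl1 at chr13:116298281-116309689. Phox2a overlaps Inppl1 on the other strand, and Gata3 overlaps 9230102O04Rik on the same strand, a gene with 58 UMIs in kept cells. How reads in that overlap were counted was not examined.

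Promoters of 6 of the 8 genes were matched in RefSeq (GRCm38.p6), all but Hand1 and Insm1. In the 250 bases before the start of the RefSeq entry, the E-box CANNTG, the letters that helix-loop-helix factors bind, was searched on both strands and found in 3 of 6, against 66.2% of 32851 promoters. The GATA letters AGATAA were found in 1 of 6 (9.99% of all promoters), the AP-2 letters GCCNNNGGC in 1 of 6 (13.7%, Gata3) and the homeodomain letters TAAT in 3 of 6 (54.9%). The stretches of Tfap2b and Gata3 lie inside the coordinates given above for these genes, since the RefSeq start is internal to them, and that of Isl1 overlaps them by 1 base. For the 6 genes the entry listed first was counted, and a further entry of Gata2 also held the AP-2 letters. The promoters with an E-box were those of Hand2, Isl1 and Tfap2b, and they are shown 5′ to 3′ on the strand of the gene with each E-box in capitals, at chr8:57320733-57320982 (plus strand), chr13:116309689-116309938 (minus strand) and chr1:19211804-19212053 (plus strand).
Hand2: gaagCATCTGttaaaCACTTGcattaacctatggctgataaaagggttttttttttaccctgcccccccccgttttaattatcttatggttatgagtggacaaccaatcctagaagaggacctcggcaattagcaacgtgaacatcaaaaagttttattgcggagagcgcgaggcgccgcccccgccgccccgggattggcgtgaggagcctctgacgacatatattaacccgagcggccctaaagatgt
Isl1: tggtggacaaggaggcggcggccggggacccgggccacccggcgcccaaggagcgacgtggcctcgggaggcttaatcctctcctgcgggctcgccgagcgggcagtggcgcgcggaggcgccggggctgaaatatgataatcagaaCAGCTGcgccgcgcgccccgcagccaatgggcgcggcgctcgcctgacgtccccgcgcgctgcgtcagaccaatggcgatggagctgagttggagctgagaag
Tfap2b: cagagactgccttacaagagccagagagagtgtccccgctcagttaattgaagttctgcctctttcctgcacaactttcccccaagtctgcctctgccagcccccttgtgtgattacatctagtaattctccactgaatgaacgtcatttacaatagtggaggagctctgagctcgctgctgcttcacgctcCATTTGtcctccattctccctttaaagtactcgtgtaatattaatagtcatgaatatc
Hand2 held 2 E-boxes, the AGATAA letters once and TAAT 5 times, Isl1 held 1 E-box and TAAT 2 times, and Tfap2b held 1 E-box and TAAT 6 times. A match of letters is not a binding site, and none was tested.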

How the data were processed

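The authors deposited, for each of 3 whole tumors, a table of raw counts (UMIs per gene and barcode) and a normalized table. Each value of the deposited normalized tables is a natural log, taken of a corrected count to which 1 was added, as read from the values. The submitters' processing notes name Cell Ranger 3.1.0, mm10 and Seurat 3.1.5. Raw counts of the barcodes in the normalized tables (1914, 1221 and 2515 cells) were used. No doublet caller was run here, since the authors state that doublets had been removed.

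Cells were integrated over tumors and clustered in Seurat 5.3.0 (R 4.3.3; 2000 variable genes, 30 dimensions, resolution 1) with 70 genes held out, the 8 genes among them. A cluster took a name when at least 3 markers were at least 2 times higher than in all other cells and found in at least 10% of its cells. This first step left 2564 cells unnamed. A step that compared tumor markers with the cells of other types, and a step that left cells with mixed markers unnamed within a tumor, were added after these data were seen.

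Counts were summed per tumor and class with at least 10 cells, giving 27 sums of 12 classes. They were tested with edgeR 4.0.16 (quasi-likelihood, filterByExpr, TMM, Benjamini-Hochberg adjusted p under 0.05), with DESeq2 1.42.0 as an alternative. The edgeR fit was tested on simulated data, the outcome of which is used for no result here. Other alternatives were no filter, the tumor as a block, each tumor left out, resolution 0.5, no integration, corrected counts, other depths and, added after the data were seen, the first naming step alone, 1 macrophage-like cluster left out, no TMM factors and the other classes summed. Classes of a tumor come from the same animal. Over 10047 genes, deviations from the class mean correlated with a median of 0.199 in 45 pairs of sums from the same tumor and -0.164 in 90 pairs from different tumors.

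Cells were thinned without replacement to 1000 UMIs in Python 3.11.15 (NumPy 2.4.6). Shares have exact binomial intervals and levels exact Poisson intervals (SciPy 1.17.1), which cover counting error only. A count of 0 is given the limit of 3 counts. In each other list up to 4 genes called with the largest log2 difference were named, and for each of the 8 genes the 2 genes with the highest correlation among those with a mean of at least 5 CPM. The members and lists were chosen with earlier results of these data known.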

Additional observations from a re-analysis of the deposited data

Results flagged for a closer look

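The barcodes that the authors did not keep also held the 8 genes, and they appear here because no comparison of the report uses them and their counts lie above the limit that a count of 0 allows. In tumor 1 the 1343 barcodes not kept (median of 925 UMIs) held 661 UMIs of the 8 genes, 140.9 CPM (here without TMM factors), against 117 CPM in kept cells. In tumor 2 the 3106 barcodes not kept (median of 5351.5 UMIs) held 12908 UMIs, 676 CPM, against 939.96 in kept cells. In tumor 3 the 3523 barcodes not kept (median of 3703 UMIs) held 13430 UMIs, 906 CPM, against 1200.3 in kept cells. These barcodes thus held 30.9%, 83.4% and 68.2% of all UMIs of the 8 genes in tumors 1, 2 and 3.

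Hand1 passed the same limit in tumor 2 alone, with 58 UMIs in barcodes not kept (3.04 CPM, limit 0.157), against 11 UMIs (4.01 CPM) in kept cells. None of these differences was tested.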

How the results depend on the processing

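Of the 7 genes called in tumor-like cells, 4 to 7 were called with 1 tumor left out and 1 with the first naming step alone. With the other classes summed 1 was called, and 2 with these summed and the tumor as a block. Of all genes tested, 5.23% were called without tumor 1, 14% without tumor 2 and 5.58% with the first naming step alone. With classes summed they were 33.9%, and 36.7% with the block as well. In T cell-like, endothelial-like and CAF-like cells together, 0 were called, 3 with no filter, 3 with the block and 0 to 2 with 1 tumor left out. Of all 7566 genes, 1.72%, 11.4% and 12.7% were called in these classes without the block, and 4.61%, 15.6% and 17.4% with it. Where no share of all genes is given, the counts only describe the 8 genes. The 3 with no filter were Gata3 and Tfap2b (2.14) in T cell-like and Gata2 in endothelial-like cells, each higher. With the block Tfap2b was not called, and Hand2 was called lower in CAF-like cells. With the other classes summed the block added the call of Gata2, and it changed no further call of the 8 genes. Genes called in tumor-like cells numbered 2408, and 4398 with no filter, 792 on corrected counts, 455 with the first naming step alone, 3673 with classes summed and the block (1122 higher and 2551 lower, against 2177 and 231), and 227 to 1700 with 1 tumor left out. For T cell-like cells they numbered 130, and 62 by DESeq2, 513 with no filter, 349 with the block, 209 without TMM factors and 52 to 166 with 1 tumor left out. For endothelial-like cells they numbered 866, and 566 by DESeq2, 1521 with no filter and 550 on corrected counts. For CAF-like cells they numbered 959, and 450 by DESeq2, 2194 with no filter and 345 to 1224 with 1 tumor left out, where the CAF-like class keeps 1 sum without tumor 1 or 3, assumed to vary like the others. Between the G2/M states they numbered 9, and 20 with no filter, 14 with the block, 17 at 500 UMIs, 0 at 1500 UMIs, where the state without mitosis genes kept 1 sum that was assumed to vary like the others, and 1 to 15 with 1 tumor left out. The cause was not tested. The median pair ratio, averaged over tumors, was 1.04 ± 0.075 (SD, n = 3 tumors), and 0.945, below 1, at 500 UMIs. The mean number of the 8 genes per tumor-like cell was 1.22, and 0.618 at 500 UMIs and 2.07 at 2000 UMIs, since fewer UMIs per cell hold fewer genes, and it was 0.760 on corrected counts at 500 UMIs. Without TMM factors the same 7 genes were called in tumor-like cells, and the median log2 difference of all genes tested was 0.68, against 0.43. Alternatives that were added were chosen after the data were seen.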
